A study of Mus musculus with 4 samples.

Results

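Runx2 occupied 661 merged regions at the start sites of noncoding RNA genes, out of 67703 merged regions in all (0.976%). Peaks from 3 time points of osteoblast differentiation were joined into 1 region wherever they shared at least 1 bp. A region was kept when its centre lay within 1 kb of an annotated start of a lincRNA, antisense or microRNA gene and more than 1 kb from every protein-coding start (GENCODE M1, mm9). Of the 661 regions, 391 lay at lincRNA starts, 162 at antisense starts and 116 at microRNA starts, with 8 regions at starts of more than 1 type. They belonged to 626 noncoding genes.

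The measurements came from chromatin immunoprecipitation followed by sequencing (ChIP-Seq) with the M70 antibody against Runx2 in MC3T3-E1 subclone 4 cells, a mouse preosteoblast line derived from calvaria and labelled as strain C57BL/6. Cells were taken while proliferating at day 0, during matrix deposition at day 9 and during mineralization at day 28. Differentiation was induced with ascorbic acid and beta-glycerophosphate. Each time point was represented by 1 peak list, in which 2 libraries had been pooled, so no value below has a replicate error. The lists held 25457, 60596 and 40330 peaks at days 0, 9 and 28. The deposited lists give no read counts, so the number of reads behind a peak could not be read from them. Read totals per time point are listed in the study's supplement, with the most for the proliferating cells, whose peak list is the shortest. The lists hold no expression values either, so neither the markers of the cells nor the transcription of any noncoding gene was examined.

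Runx2 is the runt-domain transcription factor that commits mesenchymal cells to the osteoblast lineage, and its DNA-binding domain recognizes the core sequence TGTGGT. Long noncoding RNAs are transcribed by RNA polymerase II like messenger RNAs, either between coding genes (lincRNA) or across a coding gene on its other strand (antisense). MicroRNAs are cut from hairpins inside longer primary transcripts, and each represses messenger RNAs that pair with its seed, the bases near its 5′ end. The annotated start of a microRNA gene is the edge of its hairpin, so a region within 1 kb of it can lie far from the promoter of the primary transcript.

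Runx core sequences lay close to the centre of several regions at microRNAs and long noncoding RNAs. The windows below hold 30 bases of mm9 each around the core nearest the region's centre, written 5′ to 3′ on the strand that reads TGTGGT, with the core in capitals. They are shown because the core is the sequence that the Runx2 DNA-binding domain recognizes.
Mir206, chr1:20669141-20669170, plus strand: tgtaaggaagtgTGTGGTtttggcaagtgc
Mir30a, chr1:23278254-23278283, plus strand: ggcaactaaaatTGTGGTaacttcatctaa
Mir182, chr6:30116525-30116554, plus strand: cactgcccggccTGTGGTctcctccctgag
Mir34c, chr9:50911145-50911174, plus strand: tttacctggctgTGTGGTtagtgattggta
Mir497, chr11:70048231-70048260, plus strand: ccagcagcacacTGTGGTttgtacggcact
1700019G24Rik, chr6:5927719-5927748, minus strand: gatgaaacttggTGTGGTcagggttggggc
AY512931, chr8:46148436-46148465, minus strand: ttccgagcccggTGTGGTttttaatacact
Gm11551, chr11:101746629-101746658, plus strand: gctggcttcctcTGTGGTtagtgaggagct
The core lay 2 bp from the centre at Mir30a and Gm11551, 4 bp at Mir182 and AY512931, 10 bp at 1700019G24Rik, 25 bp at Mir206 and 47 bp at Mir34c. At Mir497 the core lay 181 bp from the centre, beyond the 50 bp used below. At Mir206, Mir34c and Mir497 it lay inside the microRNA hairpin itself. The windows are a selection. Gm13634, Gm16333 and A630014C17Rik, not printed, had cores at 18 bp, 32 bp and 48 bp.

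Mature microRNAs of the named regions are shown with the seed, bases 2 to 8, in capitals. The first 9 belong to genes that share a seed with another gene at a region, and hairpins that share a seed address the same pairing sites in messenger RNAs. Sequences are from RefSeq (GRCm38.p6), in which 30 of the 114 microRNA genes with a region were matched by name.
mmu-miR-132-3p: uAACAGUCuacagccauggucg
mmu-miR-212-3p: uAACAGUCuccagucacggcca
mmu-miR-497a-5p: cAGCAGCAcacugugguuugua
mmu-miR-195a-5p: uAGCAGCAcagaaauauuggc
mmu-miR-34b-3p: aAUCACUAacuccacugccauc
mmu-miR-34c-3p: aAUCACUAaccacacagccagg
mmu-miR-199a-3p: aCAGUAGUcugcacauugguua
mmu-miR-199a-5p: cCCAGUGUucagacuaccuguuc
mmu-miR-148a-3p: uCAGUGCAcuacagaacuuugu
mmu-let-7i-5p: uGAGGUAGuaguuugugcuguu
mmu-miR-140-3p: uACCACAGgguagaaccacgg
mmu-miR-206-3p: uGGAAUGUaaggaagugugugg
mmu-miR-210-3p: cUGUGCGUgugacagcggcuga
Among the 30 matched genes, 7 seeds were carried by more than 1 gene. Over all microRNA genes, AGCAGCA was carried by 11, of which 2 had a region. CAGUAGU and CAGUGCA were carried by 3 genes each, of which 2 had a region. Each other shared seed was carried by 2 genes, both with a region. Whether genes with a region share seeds more often than others was not tested. Mir132 and Mir212 shared AACAGUC, Mir497 and Mir195 shared AGCAGCA, and Mir34b and Mir34c shared AUCACUA. In each of these 3 pairs both hairpins also had the same Runx2 region centred within 1 kb. The hairpins of each pair lie less than 1 kb apart, so their position largely fixes this. At Mir34b and Mir34c, however, no region covered both hairpins. Mir199a-1 and Mir199a-2 yield the same mature sequences from different chromosomes, and each had its own region. Mir148a and Mir148b, on different chromosomes, shared CAGUGCA.

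Some mature microRNAs contained the Runx core within their own letters. These DNA copies of mature sequences, read 5′ to 3′ along the microRNA, have the core or its reverse complement ACCACA in capitals and were chosen after their sequences had been seen.
mmu-miR-140-3p, chr8:110075188-110075208, plus strand: tACCACAgggtagaaccacgg
mmu-miR-34c-3p, chr9:50911149-50911170, minus strand: aatcactaACCACAcagccagg
mmu-miR-497a-5p, chr11:70048232-70048253, plus strand: cagcagcacacTGTGGTttgta
mmu-miR-497a-3p, chr11:70048272-70048292, plus strand: caaACCACAcTGTGGTgttag
In mm9 each of them lay inside its Runx2 region, at 155 bp, 47 bp, 178 bp and 218 bp from the centre. Of the 53 mature sequences of matched genes with a region, 4 held the core (7.55%, 95% exact interval 2.09 to 18.2), compared with 25 of all 1738 RefSeq mature microRNAs (1.44%, interval 0.933 to 2.12). The 4 sequences came from 3 hairpins and are not independent, and no test was made. The 53 sequences are part of the 1738, and their genes were taken for lying at a Runx2 region. The comparison is therefore given as a description.

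Other regions had no core within 50 bp of the centre and were rich in CpG. The stretches of 120 bases of mm9 below surround the centres of 3 of the regions with the highest scores at days 9 and 28, with every CpG in capitals.
Mirlet7i, chr10:122423082-122423201, plus strand: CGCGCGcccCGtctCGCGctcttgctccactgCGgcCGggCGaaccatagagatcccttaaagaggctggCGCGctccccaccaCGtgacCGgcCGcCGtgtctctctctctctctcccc
Mir212 and Mir132, chr11:74986886-74987005, plus strand: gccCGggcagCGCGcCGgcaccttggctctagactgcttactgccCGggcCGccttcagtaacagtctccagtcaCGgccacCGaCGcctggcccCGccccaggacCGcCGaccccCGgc
Malat1, chr19:5803239-5803358, plus strand: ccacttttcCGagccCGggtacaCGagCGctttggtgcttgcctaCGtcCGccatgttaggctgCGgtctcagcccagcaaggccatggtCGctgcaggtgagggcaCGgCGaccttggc
They held 15, 13 and 10 CpG dinucleotides. The Mir212 stretch contained both mature arms of miR-212, so the centre of that region fell on the hairpin.

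Of the 5072 lincRNA, antisense and microRNA genes annotated, 12.3% had such a region on any day, compared with 53.8% of 22359 protein-coding genes with a region at a start. Among the 3 types, lincRNA genes were occupied most often. A region was present at 360 of 2141 lincRNA genes (16.8%, 95% exact interval 15.3 to 18.5), at 152 of 1354 antisense genes (11.2%, 9.59 to 13.0) and at 114 of 1577 microRNA genes (7.23%, 6.00 to 8.62). These 3 intervals did not overlap. Counted by list, 307 noncoding genes had a region with a day 0 peak (6.05%), 553 one with a day 9 peak (10.9%) and 445 one with a day 28 peak (8.77%), where protein-coding genes had 42.6%, 52.2% and 50.0%. The noncoding shares leave out regions within 1 kb of a coding start, so they are not like for like with the coding shares. With those regions counted, 37.4% of lincRNA, 24.7% of antisense and 11.5% of microRNA genes had a region at a start on any day. Intervals here and below cover counting error only, and regions at the same gene or close to each other are not independent.

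The requirement of distance from coding starts removed many noncoding genes. Before it was applied, 1389 regions lay within 1 kb of a noncoding start, and 728 of them were also within 1 kb of a coding start. Thus 440 lincRNA genes, 182 antisense genes and 67 microRNA genes had a region only at a start shared with a coding gene, among them Gas5, Tug1, Snhg1, Snhg9, Mir152, Mir320 and Mir574. Just inside the limit, the region at Mir34c lay 1023 bp from the start of the coding gene 4833427G06Rik. Just outside it, the region at Mir1956 lay 966 bp from the start of Eif4e. At the other limit, a region at the microRNA gene AL589878.1 was kept at 1000 bp and one at the lincRNA gene 0610025J13Rik was left out at 1007 bp.

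Most of the 661 regions lay outside protein-coding transcripts. There were 426 outside, 191 in coding introns and 44 in coding exons. The same shares over all merged regions were not computed, so these counts are a description only. The types differed in coding context. For lincRNA and antisense genes their definitions largely fix this, since the former lie between coding genes and the latter across them. Intronic regions were 54 of those at lincRNA starts (13.8%), 84 of those at antisense starts (51.9%) and 54 of those at microRNA starts (46.6%). The median distance to the nearest coding start was 19817 bp, with a range from 1004 to 1325618 bp.

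Region centres lay within 250 bp of the start less often at noncoding than at coding starts. Within that distance lay 46.8% of centres at lincRNA starts (interval 41.8 to 51.9), 42.6% at antisense starts (34.9 to 50.6) and 32.8% at microRNA starts (24.3 to 42.1), compared with 70.7% at coding starts (69.9 to 71.6). The lincRNA share exceeded the microRNA share by 14.0 points (Newcombe 95% interval 3.82 to 23.3), while the antisense share differed from it by 9.83 points with an interval of -1.77 to 20.8. The median distance of centre from start was 273 bp for lincRNA, 350 bp for antisense and 439 bp for microRNA starts, and 135 bp for coding starts. At coding starts the centre was upstream of the start in 36.4% of regions. At the 3 noncoding types it was upstream in 50.6%, 48.1% and 53.4%.

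**Figure D1:**
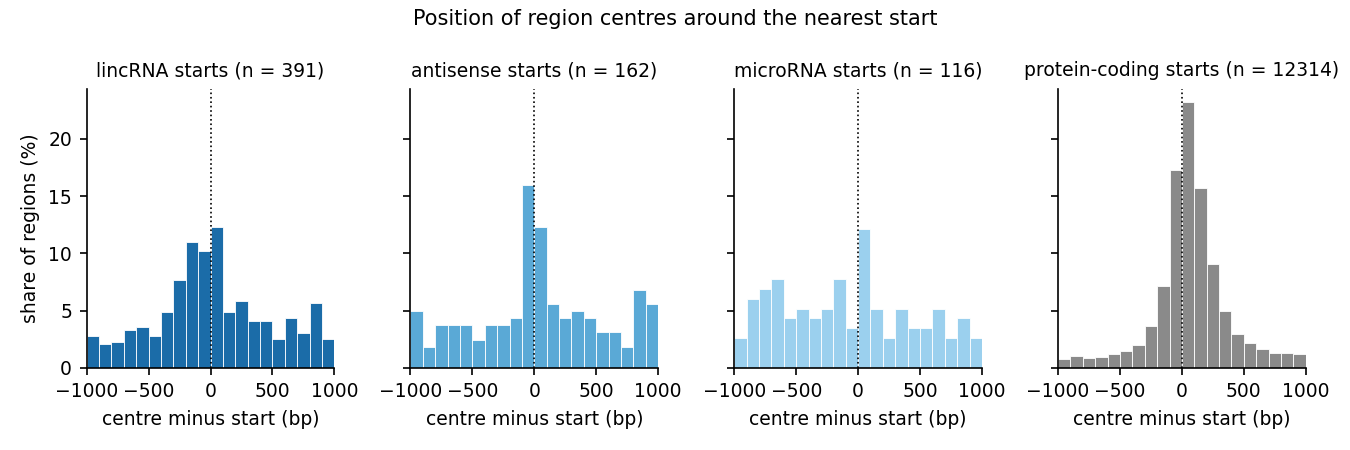
Position of region centres relative to the nearest start, in 100 bp bins along the direction of transcription (x axis, bp, negative upstream), as a share of the regions of each type (y axis, percent). Coding starts show a narrow peak just downstream of the start, lincRNA and antisense starts a lower and broader one, and microRNA hairpins a broad spread with 32.8% of centres within 250 bp.

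The share of regions with Runx2 peaks at all 3 days was higher at noncoding starts than in distal regions, and lower than at coding starts. Peaks at all 3 days were found in 257 of the 661 regions (38.9%, 95% exact interval 35.1 to 42.7), where the share over all regions was 27.4%. At coding starts the share was 69.6%, which was 30.8 percentage points above the noncoding starts (Newcombe 95% interval of the difference, noncoding minus coding, -34.5 to -26.9). In distal regions, over 1 kb from every start considered, it was 17.8%, or 21.1 points below the noncoding starts (17.4 to 24.8). With peaks at p of 1e-50 or below, both differences kept their sign and were smaller, at -7.05 points from coding starts (-12.0 to -1.37) and 7.63 points from distal regions (2.70 to 13.3).

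Most of the other regions had no peak at day 0. Peaks at days 9 and 28 without day 0 were found in 140 regions (21.2%, compared with 21.1% of all regions), so this pattern had the background share. Peaks at day 9 only were found in 171 regions (25.9%, against 34.5% of all), at day 28 only in 47 (7.11%, against 7.59%) and at day 0 only in 29 (4.39%, against 5.60%). The patterns of days 0 and 28 (9 regions, 1.36% against 2.06% of all) and of days 0 and 9 (8 regions, 1.21% against 1.69%) were rare.

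By day, 303 regions had a peak at day 0 (45.8%, against 36.8% of all regions), 576 at day 9 (87.1%, against 84.7%) and 453 at day 28 (68.5%, against 58.2%). This order followed the length of the lists. When the same number of top-scoring peaks was taken from each list, the shares for days 0, 9 and 28 became 72.7%, 67.1% and 79.1% of 417 regions, with day 0 above day 9. The share with day 9 alone then fell from 25.9% to 6.47%. A count of regions per day is therefore given here as a description of the lists and not as a change in occupancy.

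**Figure D2:**
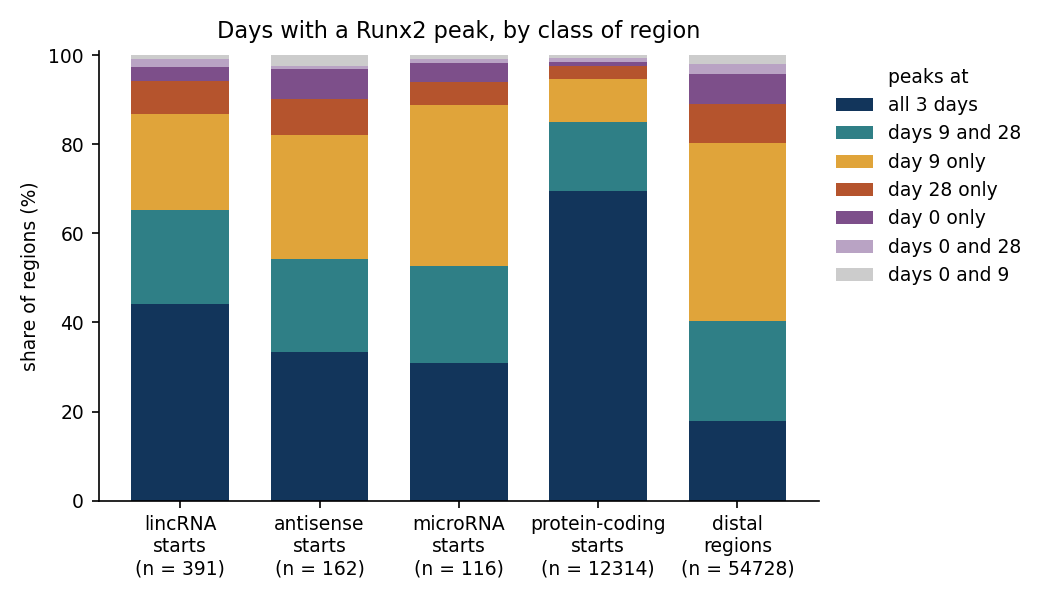
Share of regions (y axis, percent) with each combination of days bearing a Runx2 peak, as stacked bars for lincRNA, antisense and microRNA starts, protein-coding starts and distal regions, with the number of regions under each bar. The 3 noncoding types stand between the coding starts, with 69.6% at all 3 days, and the distal regions, with 17.8%.

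With all deposited peaks, lincRNA starts differed from antisense and microRNA starts in the share with peaks at all 3 days. Regions at lincRNA starts had peaks at all 3 days in 173 of 391 cases (44.2%), antisense starts in 54 of 162 (33.3%) and microRNA starts in 36 of 116 (31.0%). The lincRNA share exceeded the microRNA share by 13.2 points (3.07 to 22.4) and the antisense share by 10.9 points (1.92 to 19.3), while antisense and microRNA starts differed by 2.30 points with an interval of -8.91 to 13.1. Conversely, 36.2% of microRNA regions had a peak at day 9 only, compared with 21.5% of lincRNA regions (lincRNA minus microRNA, -14.7 points, -24.5 to -5.47). The lincRNA minus microRNA difference at all 3 days did not hold at the strictest threshold. With peaks at p of 1e-50 or below it was -4.12 points (-19.7 to 9.26), with the opposite sign. Its interval also included 0 at p of 1e-20 (11.6 points, -0.979 to 23.0), with an equal number of peaks per list (8.93 points, -4.59 to 21.9) and within 500 bp of the start (9.83 points, -3.87 to 22.3). The lincRNA minus antisense difference and the difference at day 9 only were not recomputed under the alternatives.

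Within their own list, the peaks at noncoding starts ranked slightly above the middle at days 9 and 28, and at day 0 the interval of their median included the middle. The score is 10 times the negative log10 of the peak caller's p-value and was used as a rank within 1 list only. For days 0, 9 and 28 the median percentiles were 50.1 (interval 45.9 to 57.2), 56.3 (51.2 to 61.4) and 56.9 (53.3 to 62.2). At day 9 coding starts had a median of 79.2 and distal regions one of 43.4.

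CpG-rich sequence divided the noncoding starts. A centre was called CpG-rich when the surrounding 300 bp had a G+C content of at least 50% and an observed to expected CpG ratio of at least 0.6. This held for 165 of the 661 regions (25.0%, interval 21.7 to 28.4), compared with 16.6% of all regions, 72.2% at coding starts and 4.04% of distal regions. Among noncoding types it held for 30.2% of lincRNA, 16.0% of antisense and 23.3% of microRNA regions.

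CpG-rich noncoding starts carried peaks at all 3 days in 63.6% of cases, against 30.6% for the other noncoding starts, a difference of 33.0 points (24.3 to 41.0). The shares were close to each other in the 3 types, at 63.6% for CpG-rich lincRNA, 69.2% for antisense and 63.0% for microRNA regions. Coding starts that were CpG-rich stood higher, at 80.7% (noncoding minus coding -17.0 points, -24.6 to -10.0), and CpG-rich distal regions lower, at 32.3% (31.3 points, 23.5 to 38.5). Among regions that were not CpG-rich, the share was 30.6% at noncoding starts, 41.0% at coding starts (-10.4 points, -14.6 to -5.86) and 17.2% in distal regions (13.4 points, 9.53 to 17.6). At p of 1e-50 or below the difference between CpG-rich and other noncoding starts was 3.84 points (-6.65 to 14.6).

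The comparison of lincRNA with microRNA starts was also made within each CpG group. In CpG-rich regions the lincRNA share with peaks at all 3 days exceeded the microRNA share by 0.596 points (-17.3 to 21.0). In the others it did so by 14.5 points, 35.9% against 21.3% (3.50 to 23.9). The intervals of the 2 groups overlap, with 27 CpG-rich microRNA regions, and whether the differences differ was not tested. A peak at day 0 only was found in 0 of the 165 CpG-rich noncoding starts, which allows a share of up to 2.21% at this number of regions.

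**Figure D3:**
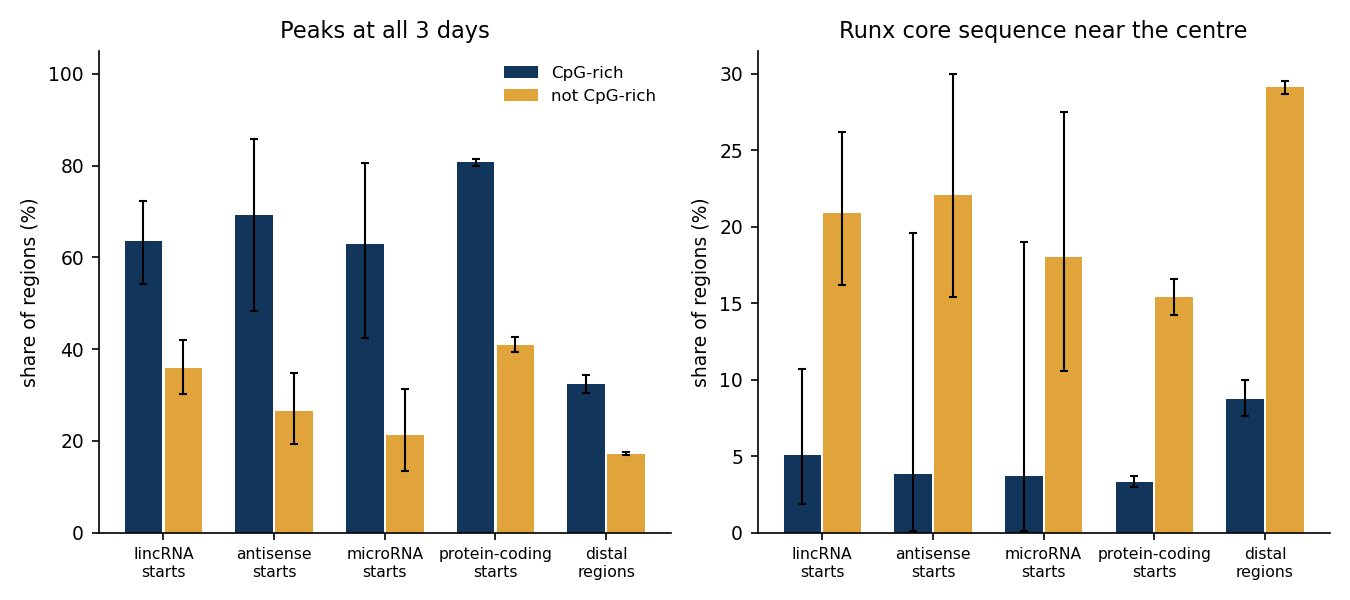
Share of regions (y axes, percent) with peaks at all 3 days (left) and with the Runx core TGTGGT within 50 bp of the centre (right), for CpG-rich and other regions of each class; bars are shares and error bars are 95% exact intervals. In every class the CpG-rich regions more often had peaks at all 3 days and less often had the core.

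The core TGTGGT, on either strand, lay within 50 bp of the centre in 111 of the 661 regions (16.8%, interval 14.0 to 19.9), compared with 24.2% of all regions. In windows of the same length 450 to 550 bp away on either side it was found in 7.34% of cases. Noncoding starts held the core more often than coding starts (6.68%, difference 10.1 points, 7.42 to 13.2) and less often than distal regions (28.3%, -11.5 points, -14.2 to -8.41). By type the shares were 16.1% at lincRNA, 19.1% at antisense and 14.7% at microRNA starts, with intervals of all 3 pairwise differences including 0.

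The core and the CpG-rich sequence were largely found in different regions. It was present in 4.85% of CpG-rich noncoding starts and 20.8% of the others (-15.9 points, -20.4 to -10.4). Regions with the core had peaks at all 3 days in 25.2% of cases and at day 9 only in 40.5%, while regions without it had 41.6% and 22.9%. The differences were -16.4 points (-24.7 to -6.71) and 17.6 points (8.21 to 27.5). For comparison, intronic noncoding starts had peaks at all 3 days in 27.7% of cases and those outside coding transcripts in 45.8% (-18.0 points, -25.6 to -9.82).

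**Figure D4:**
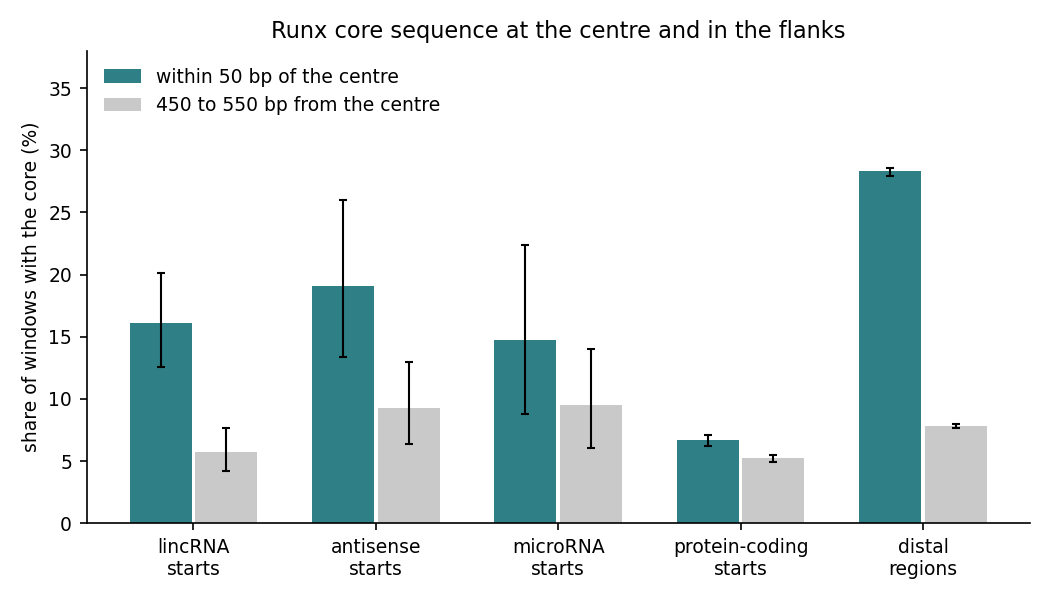
Share of windows with the Runx core TGTGGT on either strand (y axis, percent), within 50 bp of the region centre (teal) and in windows 450 to 550 bp from it (grey), by class of region, with 95% exact intervals. The centre exceeds the flank in each noncoding type, with intervals that overlap at microRNA starts, and the noncoding types lie between coding starts (6.68%) and distal regions (28.3%).

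MicroRNAs and long noncoding RNAs known from bone or widely studied were examined by name. Of 122 listed microRNA genes found in the annotation, 20 had a region (16.4%), compared with 7.23% of all microRNA genes. Of 31 listed lncRNA genes found, 12 had one (38.7%), compared with 16.8% of lincRNA and 11.2% of antisense genes. The lists were drawn up with earlier results of these data known, so these shares are given as a description. No region within 1 kb was found at the hairpins of Mir21, Mir29a, Mir29b-1, Mir133a-1, Mir204, Mir211, Mir214, Mir218-1 or Mir335, nor at the starts of H19, Meg3, Rian or Mirg. Among all microRNA genes, 8.0% of those named after a microRNA (44 of 550) and 6.82% of those named after a sequenced clone or otherwise (70 of 1027) had a region, with overlapping intervals of 5.87 to 10.6 and 5.35 to 8.53.

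The 22 listed microRNA regions had peaks at all 3 days in 7 cases, at days 9 and 28 in 4, at day 9 only in 7, at day 0 only in 3 and at day 28 only in 1. Of the 7 present throughout, 5 had a CpG-rich centre. The values that follow are the score and, after it, the percentile within that day's list.

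The miR-132 and miR-212 hairpins, a cluster known as a target of the transcription factor CREB, shared a region at chr11:74986279-74987614. Its score was 1168 at day 0 (percentile 93.1) and 3100 at days 9 and 28 (97.4 and 97.8). The score 3100 is a value at which many peaks tie, 2699 of them at day 9 and 1468 at day 28. A separate region upstream, at the start of the lincRNA gene 1700016P03Rik, had a peak at day 28 only with a score of 138 (16.8).

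Mirlet7i encodes a member of the let-7 family, which restrains Lin28 and Hmga2. Its region at chr10:122422116-122424169 scored 328 at day 0 (57.6) and 3100 at days 9 and 28. The region at Mir193, at chr11:79524098-79526043, scored 368 at day 0 (62.1), 1865 at day 9 (89.9) and 2161 at day 28 (91.9). Percentiles describe a peak within 1 list, and since the lists differ in length, no change between days is read from them.

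Both genes of miR-199a had a region with peaks at all 3 days, each in an intron of a dynamin gene. Mir199a-2 lies within Dnm3os, an antisense transcript in Dnm3 that is known for its role in mouse skeletal growth. The centre of the region at chr1:164147270-164148286 lay 24 bp downstream of the start of Dnm3os and 167 bp upstream of the hairpin. It scored 448 at day 0 (69.4), 1328 at day 9 (85.2) and 598 at day 28 (66.2). The Mir199a-1 region, in an intron of Dnm2 at chr9:21300812-21302104, scored 609 (79.5), 1162 (83.1) and 943 (76.8). Neither region had the core within 50 bp of its centre, and neither was CpG-rich.

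Mir210, the microRNA known for its induction by hypoxia, had a region that scored 137, 847 and 525 on days 0, 9 and 28 (17.6, 77.7 and 62.8). Mir34b and Mir34c, known targets of p53, had a pair of adjacent regions. The larger one, which was CpG-rich, covered the Mir34b hairpin and had its centre upstream of both hairpins. It scored 135, 222 and 295 (16.7, 43.8 and 46.3). The smaller one, centred 9 bp inside the Mir34c hairpin and holding the core printed above, had 221 at day 9 (43.7), 108 at day 28 (4.21) and no peak at day 0.

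Regions at days 9 and 28 without a day 0 peak included the microRNA pair with the next highest ranks. Mir497 and Mir195 carry the seed of the miR-15 and miR-16 family, which is known to restrain the cell cycle. Their region at chr11:70047412-70048717 scored 1954 at day 9 (90.6) and 1291 at day 28 (83.4). Mir148a had a CpG-rich region of 1068 (81.6) and 887 (75.4), centred 842 bp upstream of the hairpin. Mir182, of the cluster known from sensory organs, had 303 (54.2) and 113 (6.90) with the core 4 bp from the centre.

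Peaks at day 9 only were found at Mir140, Mir26a-1, Mir338, Mir143 and Mir145. Mir140, the microRNA characteristic of cartilage, lies in an intron of Wwp2, and its region at chr8:110074695-110075391 scored 848 at day 9 (77.7). The other microRNAs of this pattern had lower ranks, from 108 (5.89) to 419 (63.1), both at the pair of regions beside Mir338 in Aatk. Mir143 and Mir145, known from smooth muscle, had 3 small regions of 123 (14.8), 182 (35.6) and 149 (26.1). Peaks at day 0 only were found at Mir206, a microRNA of skeletal muscle, with scores of 310 (55.5) on the hairpin and 135 (16.6) upstream of it, and at Mir30a with 149 (21.7).

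**Figure D5:**
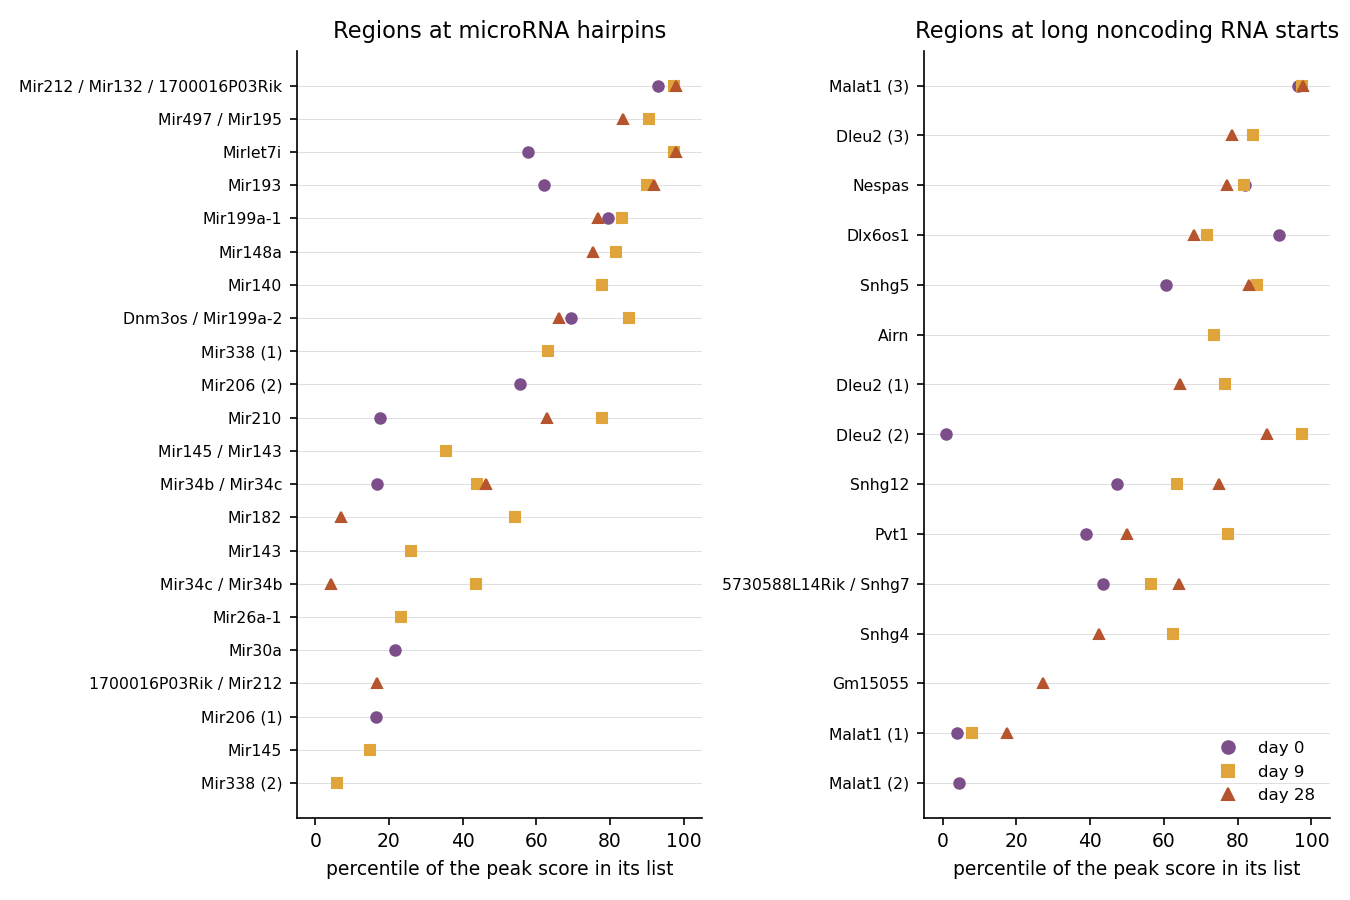
Percentile of the peak score within its own list (x axis) at days 0, 9 and 28 for the 22 listed microRNA regions (left) and 15 listed long noncoding RNA regions (right), 1 row per region, ordered by mean percentile; a missing symbol means that no peak was listed on that day. The Mir212 and Mir132 region and 1 of the 3 regions at Malat1 lie between the percentiles 93.1 and 97.8 on every day, while Mir206 and Mir30a have day 0 symbols only.

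The 15 listed lncRNA regions without a microRNA had peaks at all 3 days in 9 cases, at days 9 and 28 in 3 and on a single day in the others. None had the core within 50 bp of the centre, and 9 had a CpG-rich centre. Malat1, an abundant nuclear transcript, had 3 regions of very different rank. The region centred 628 bp upstream of the nearest Malat1 start, at chr19:5802355-5804244, scored 1649 at day 0 (96.3) and 3100 at days 9 and 28. The other two, at further annotated transcript starts, had scores from 107 to 140, with all 3 days listed for the first and day 0 only for the second.

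Dleu2, the host transcript of miR-15a and miR-16, also had 3 regions. The middle region scored 102 at day 0 (percentile 0.917), 3100 at day 9 (97.4) and 1670 at day 28 (88.0). The other two had no day 0 peak and scored 798 and 1251 at day 9 and 557 and 1012 at day 28. The 3 Dleu2 regions thus ranked between 64.3 and 97.4 in both later lists.

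Genes that host small nucleolar RNAs were represented by Snhg4, Snhg5, Snhg7 and Snhg12. Snhg5 had the highest ranks of these, with 354 at day 0 (60.7), 1347 at day 9 (85.4) and 1269 at day 28 (83.1). Snhg7 scored 234, 329 and 548, and Snhg12 scored 256, 427 and 867 on days 0, 9 and 28 (percentiles 43.5, 56.6 and 64.0, and 47.4, 63.6 and 74.9). Snhg4 had 407 at day 9 (62.4) and 264 at day 28 (42.5).

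Of the listed imprinted noncoding genes, Nespas and Airn had a region, while H19, Meg3, Rian and Mirg had none. Nespas, transcribed across the Gnas locus, scored 661, 1080 and 958, with percentiles between 77.2 and 81.9 on all 3 days. Airn, which silences Igf2r on the paternal chromosome, had a CpG-rich region in an Igf2r intron with 678 at day 9 (73.6) and no peak on the other days. Pvt1, downstream of Myc, scored 213, 830 and 330 (38.9, 77.3 and 49.9).

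Antisense genes across osteoblast regulators were examined in the same way. Of 17 antisense genes that overlap 1 of the 112 listed osteoblast genes on the other strand, 6 had a region (35.3%), where the share over all antisense genes was 11.2%, and 2 more had a region at a coding start only. The osteoblast list was also drawn up with earlier results of these data known, so this share is given as a description. The best ranked at day 0 was Dlx6os1 opposite Dlx6, a homeobox gene of skeletal development, with 1032 at day 0 (91.2), 622 at day 9 (71.8) and 646 at day 28 (68.2). Its region lay outside coding transcripts, 32812 bp from the nearest Dlx6 start. Gm15222, in an intron of Bmp4, the gene for a bone morphogenetic protein, had 861 at day 9 (78.0) and 926 at day 28 (76.4). BC042782, an antisense gene that overlaps Jun, had 250 at day 0 (46.5) and 122 at day 28 (10.6). That region also lay outside coding transcripts, 46207 bp from the nearest Jun start.

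The antisense transcript 9530072K05Rik lies in an intron of Runx2 itself. Its region, at chr17:44846595-44848015 and 24337 bp from the nearest Runx2 start, had a peak at day 0 only with a score of 184 (32.2). A630014C17Rik in Tcf7, a nuclear effector of Wnt signalling, and Gm11551 in Meox1 had peaks at day 9 only, with 126 (16.6) and 192 (37.9). These 3 regions thus ranked between 16.6 and 37.9 in the list in which they were found.

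The following regions had the highest mean percentile of their type among those with peaks at all 3 days. At lincRNA starts, Gm16046, Gm14321 and Abhd1, which this annotation lists as a lincRNA gene, scored 3100 on all 3 days, and Gm14321 was centred 99 bp from its start and 88720 bp from Cebpb, its nearest coding gene. At antisense starts the highest were 1700019G24Rik in Dync1i1 with 1030, 2112 and 3024, Gm15722 in Gramd4 with 2236, 1038 and 2041, and Gm15552 in Prkag2 with 517, 3100 and 1608. At microRNA starts they were mmu-mir-689-2 in Zc3h7a with 2369, 3100 and 3100, CT009708.1 in Anxa2 with 2677, 3100 and 2168, and the Mir212 and Mir132 region.

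For the other patterns of days, the highest mean ranks were found at days 9 and 28. There, 4833413E03Rik had 3100 at day 9 and 3169 at day 28, and Gm16240 in Dip2a and AL596324.1 in Bcas3 had 3100 at both. At day 9 only, the highest of each type were Gm15317 in Wrb (antisense, 1383, 85.8), AC150744.1 in an Arhgef17 exon (microRNA, 1087, 81.9) and AY512931 (lincRNA, 692, 74.0). At day 0 only the highest of each type were 1700057H21Rik (lincRNA, 528, 75.1), Gm16333 in Kcnab2 (antisense, 409, 66.0) and Mir206. Gm12022 had 756 at day 0 (85.2) and 460 at day 28 (59.4) without a day 9 peak, and 2010300F17Rik in Skap1 had 851 at day 0 (87.8) and 177 at day 9 (34.3) without a day 28 peak. At day 28 only, no region exceeded the percentile of 62.1 at Gm16639.

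Most of the listed genes that make and use microRNAs had a region at a coding start. Of 24 listed genes of microRNA biogenesis, 21 had a region within 1 kb of a coding start (87.5%, against 53.8% of all protein-coding genes), and 20 had 1 region with peaks at all 3 days (83.3%, against 41.7%). Day 0 peaks were found at 20 of them (83.3%, against 42.6% of coding genes), day 9 peaks at 21 (87.5%, against 52.2%) and day 28 peaks at 21 (87.5%, against 50.0%). This list too was drawn up with earlier results of these data known, so the shares are a description. Among CpG-rich coding start regions 80.7% had peaks at all 3 days, a share of regions and not of genes. Whether the listed genes differ from coding genes with similar starts was not tested. The Microprocessor was covered by Drosha, with percentiles of 20.5, 69.0 and 54.9, and by its partner Dgcr8, with 87.8, 97.4 and 97.8. Xpo5, which exports precursors from the nucleus, had 75.3, 88.1 and 83.6, and Dicer1, which cuts them in the cytoplasm, had 75.9, 85.5 and 92.9. Among the Argonaute genes, Eif2c1, Eif2c2 and Eif2c3 had peaks at all 3 days and Eif2c4 at days 9 and 28. No region was listed at the starts of Lin28a, Lin28b or Tnrc6b.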

How the data were processed

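Runx2 ChIP-Seq peak lists from MC3T3-E1 cells at days 0, 9 and 28 were used as deposited by the authors, 1 list per time point from 2 pooled libraries. Per the labels and the submitters' processing notes, reads were handled with CASAVA 1.6, aligned to mm9 with Bowtie 0.12.8 and called with MACS 1.4.1. Each deposited peak has a start, an end and a score (MACS p-value on a negative log10 scale, multiplied by 10), and every deposited peak passed p of 1e-10. The input library, from day 9 cells, had no peak list analysed here. A pooled list holds no counts, so no interval for its depth could be given, and a peak that was not called on a day is not shown to be absent.

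Peaks sharing at least 1 bp were merged, the centre of the merged region was its position, and starts came from every transcript in GENCODE M1 on NCBIM37 (mm9). This annotation has no gene type antisense. Genes of type processed_transcript were therefore typed by their transcripts, as antisense if they had an antisense transcript (1354 genes) and otherwise as lincRNA if they had a lincRNA transcript (868 genes, beside 1273 typed lincRNA). Coding starts were those of 51723 protein-coding transcripts. Centres were scanned for TGTGGT and for its reverse complement over 50 bp to either side.

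Shares carry exact (Clopper-Pearson) 95% intervals from SciPy 1.17.1, differences Newcombe 95% intervals from statsmodels 0.14.6, and medians binomial intervals. With 1 pooled list per time point no test between days was possible, and no p-value was computed. Scores were ranked within a list (mid-rank percentile). Named regions were those at listed microRNAs and lncRNAs, the 3 highest by mean percentile per type with peaks at all 3 days, the highest per type for each other pattern of days, and those at antisense genes across listed osteoblast genes. The members and lists were chosen with earlier results of these data known. The merging, typing, motif and interval steps were tested on simulated data. Python 3.11.15, NumPy 2.4.6, pysam 0.24.0 and Matplotlib 3.10.9 were used.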

Additional observations from a re-analysis of the deposited data

How the results depend on the processing

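No paired analysis was possible because each time point had 1 pooled list without replicate numbers, and for the same reason no replicate could be left out. Across 16 alternatives, 2 of them (annotated gene types only, and 1 region per noncoding gene) chosen after seeing the data, 18 results were recomputed in 232 values, of which 150 stayed within the interval of the reported value, or within 1.5 times for the number of regions, 81 did not and 1 changed sign. With day 9 peaks alone, shares by day could not be given. The cause of a shift was not tested unless the setting itself fixes it, as for the number of regions.

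With peaks at p of 1e-50 or below, lincRNA minus microRNA starts with peaks at all 3 days was -4.12 points, in place of 13.2. At that threshold there were 263 regions, with day 0 peaks at 31.2%, day 28 at 81.0%, all 3 days at 25.5%, day 9 only at 14.4%, the core at 11.0% and CpG-rich centres at 42.6%. Genes with a region were 7.94% of lincRNA, 3.84% of antisense and 3.49% of microRNA genes. The differences in peaks at all 3 days were -7.05 points from coding starts, 7.63 from distal regions and 3.84 between CpG-rich and other noncoding starts, and those in the core were 6.35 and -17.7 points from coding starts and distal regions. At p of 1e-20 there were 429 regions, with day 28 at 78.6%, day 9 only at 16.8%, the core at 13.1%, CpG-rich centres at 31.5%, gene shares of 12%, 7.09% and 5.14%, and differences of -22.2 (all 3 days, coding), 24.3 (CpG-rich), 7.39 and -15.7 points (core).

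With equal numbers of peaks per list there were 417 regions, with days 0, 9 and 28 at 72.7%, 67.1% and 79.1%, all 3 days at 47.5%, day 9 only at 6.47%, the core at 11.3%, CpG-rich centres at 31.2%, gene shares of 11.7%, 7.46% and 4.38%, and core differences of 6.09 and -15.0 points. With day 9 peaks alone, CpG-rich centres were 28.9% and the core difference from distal regions -14.3 points.

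Within 500 bp of a noncoding start there were 422 regions, with day 0 at 49.8%, day 28 at 73.0%, all 3 days at 43.6%, day 9 only at 22.3%, the core at 13.7%, CpG-rich centres at 32.9%, a median day 9 percentile of 61.7, gene shares of 12.1%, 7.39% and 4.25%, all 3 days differences of -26.0 and 25.7 points and core differences of 7.07 and -14.5 points. Within 2 kb there were 1094, with day 0 at 39.6%, day 28 at 62.6%, all 3 days at 31.5%, day 9 only at 30.9%, CpG-rich centres at 19.4%, gene shares of 23.2%, 19.2% and 12.5%, and all 3 days differences of -38.1 and 13.7 points. With coding starts over 5 kb away, gene shares were 13.7%, 8.35% and 5.90%. With every transcript of coding genes, the all 3 days difference from coding starts was -25.9 points.

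With annotated gene types only there were 351 regions, with day 28 at 72.1%, all 3 days at 42.7%, CpG-rich centres at 34.2% and a median day 9 percentile of 63.6. A core within 150 bp was found in 33.4%, with differences of 17.4 and -16.9 points. The stricter CpG rule held for 15.7%. The differences from coding starts and from distal regions kept their sign in each alternative run.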
